A study of Mus musculus with 18 samples.

Results

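The cytosolic ribosomal protein genes encode the proteins that, together with ribosomal RNA, build the large and the small subunit of the ribosomes that translate messenger RNA in the cytoplasm. They were taken by name from the annotation, as protein-coding genes whose symbol begins with Rpl or Rps and a digit, plus Rplp0, Rplp1, Rplp2 and Rpsa, without processed copies and without the S6 kinases and the S19 binding protein, whose symbols begin alike. This gave 85 of the 56748 gene IDs in the count files, 52 for the large subunit (Rpl) and 33 for the small subunit (Rps). The rule left out ribosomal protein genes with other names, of which Fau and Rack1 are described apart, and it took in paralogues such as Rpl7l1, Rpl22l1 and Rps27l.

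The cells were CD8 T cells isolated by sorting from the spleen of wild-type (WT) mice and not cultured. The 18 RNA-seq libraries fell into 3 diets with 6 libraries each. In the switched diet (SW), mice ate high fat food for 6 weeks and normal food for the next 6 weeks. In the high fat diet (HFD), they ate high fat food for all 12 weeks, and in the normal diet (ND), normal food for all 12 weeks. Messenger RNA was selected by its poly-A tail and copied from random hexamers. The labels do not give the age or sex of the mice. Nor do they state whether each library is a different mouse, so a p-value here measures only the spread between samples, part of which may be technical.

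Total counts ran from 11947339 to 16398340 per library. Cd8a, which encodes a chain of the CD8 coreceptor, lay between 1369 and 1635 CPM (counts scaled to library size, TMM-normalised) in all 18 libraries, against 0.0801 to 1.32 CPM for Cd4. Replicates 1 and 2 of each diet lay apart from replicates 3 to 6 in the members' summed level, as described below. The labels do not say what a replicate number marks, and this split was seen in the data.

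Ribosomal protein messenger RNAs are among the most abundant in growing and resting cells. In vertebrates most of them begin with a cytosine followed by a run of pyrimidines, the 5′ terminal oligopyrimidine (5′TOP) motif, through which the kinase mTOR and the RNA-binding protein LARP1 adjust their translation and stability together. T cells raise ribosome production when antigen activates them. Several ribosomal protein genes also have a paralogue, a second gene with a related product, and most have many processed copies elsewhere in the genome, made by reverse transcription of the messenger RNA.

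The sequences around the annotated start show this motif where the annotated start holds it, beside paralogues of which some do and some do not. They are 30 bases of the gene's strand from RefSeq (GRCm38.p6), 10 before the annotated start and 20 from the start on, with a pyrimidine run at the start, or just after it in Rps27l and Rpl22l1, in capitals. The first 5 are members whose annotated start is a C followed by at least 4 pyrimidines, at chr4:86857348-86857377 (minus strand), chr2:39005112-39005141 (minus), chr14:18270967-18270996 (minus), chr7:4792955-4792984 (plus) and chr17:27635225-27635254 (minus):
Rps6: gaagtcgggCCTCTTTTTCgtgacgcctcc
Rpl35: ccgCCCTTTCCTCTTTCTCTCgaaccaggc
Rpl15: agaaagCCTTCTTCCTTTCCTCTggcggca
Rpl28: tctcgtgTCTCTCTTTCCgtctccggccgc
Rps10: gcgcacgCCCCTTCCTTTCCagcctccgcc
The next 3 compare Rps27 (chr3:90213629-90213658, minus) with Rps27rt (chr9:114982720-114982749, minus) and with the first of the 2 annotated starts of Rps27l (chr9:66946076-66946105, plus):
Rps27: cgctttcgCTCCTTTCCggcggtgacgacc
Rps27rt: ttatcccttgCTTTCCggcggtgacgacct
Rps27l: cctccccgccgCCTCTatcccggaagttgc
The last 3 are paralogues whose pyrimidine run, if any, does not begin with a C at the annotated start, Rpl22l1 (chr3:28805498-28805527, plus), Rpl7l1 (chr17:46782637-46782666, minus) and Rpl36al (chr12:69184048-69184077, minus):
Rpl22l1: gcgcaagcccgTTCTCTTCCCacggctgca
Rpl7l1: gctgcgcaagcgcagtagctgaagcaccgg
Rpl36al: ccgtcgctcaggttcagttccgacttccgc

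The parent genes Rpl22, at both annotated starts, and Rpl36a likewise had no C followed by at least 4 pyrimidines there, so this absence was not particular to the paralogues. Rps27 and Rps27rt shared a run of 19 letters within these 30 bases, and Rps27l did not begin with it. Over the 65 members that matched a promoter entry, 14 (21.5%) had a C at an annotated start followed by at least 4 pyrimidines, against 813 of 27025 genes (3.01%). A run of 7 or more pyrimidines anywhere from 20 bases before to 50 after the start was present in 54 of the 65 members (83.1%), against 41.6% of all genes. Among short motifs searched on both strands from 250 bases before to 50 after the start, CCGGAAG, a core that ETS family factors bind, was found in 26 of 65 members (40.0%), against 9.93% of all genes. The GC box GGGCGG was found in 40 of 65 members (61.5%) against 38.2% of all genes, AAGATGGC, which YY1 binds, in 6 members (9.23%) against 3.19%, and TATAAA in 7 members (10.8%) against 15.7%. These are matches of letters at annotated starts, not mapped start or binding sites.

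The members were highly expressed and spanned a wide range of levels. On the FPKM scale, which divides counts by a length for each gene, the 83 members that passed the filter on low counts had a median of 792. The 10th percentile was at 147.5 and the 90th at 1875, a 12.7-fold span that depends on the lengths used. Of the 100 genes with the highest mean count, 53 were members. Rplp1, an acidic protein of the ribosomal stalk that recruits elongation factors, was highest at 7718 ± 708 FPKM (SD over 18 libraries). It was followed by Rps3a1 at 3826 ± 238 FPKM, Rps15 at 3466 ± 277 FPKM, Rplp0, the base of the stalk, at 3088 ± 181 FPKM, and Rpl36 at 2239 ± 224 FPKM. These were the 5 highest members, in the same order, in SW, HFD and ND libraries. Over the libraries Rps3a1 overlapped Rps15 and Rps15 overlapped Rplp0, and every library of Rplp1 lay above every library of the other 4. The third stalk protein gene, Rplp2, stood at 732 ± 51.3 FPKM. In CPM, which are not divided by length, Rplp1 had a mean of 3721 and Rplp2 of 1465. Their longest coding transcripts have 499 and 964 bases. The length behind an FPKM value need not be that of the expressed transcript, so ranks in FPKM are uncertain. Rps6, the small subunit protein that S6 kinases phosphorylate, had 1879 ± 137 FPKM, and Rpsa, which was first described as a laminin receptor, had 1496 ± 124 FPKM. Rpl5 and Rpl11, which with 5S RNA can bind MDM2 and so stabilise p53, had 838 ± 43.1 and 576 ± 53.8 FPKM.

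**Figure D1:**
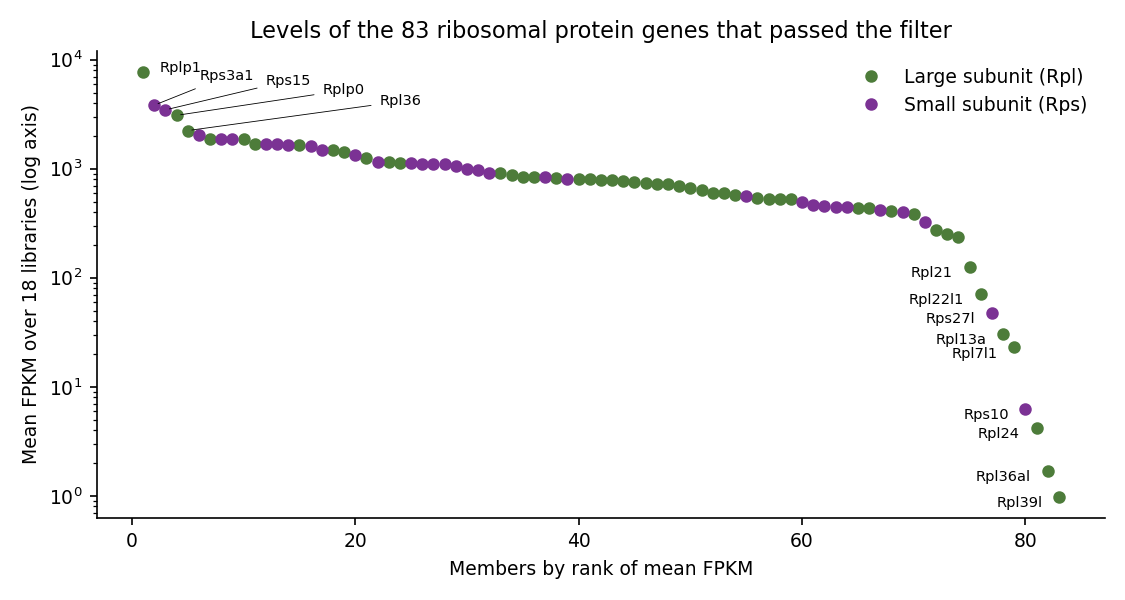
Mean FPKM over 18 libraries (log axis) of the 83 members that passed the filter, ranked from highest to lowest and coloured by subunit. Levels run from 7718 FPKM for Rplp1 to 0.982 FPKM for Rpl39l, and 75 members exceed 100 FPKM.

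Of the members that passed, Rpl39l (0.982 ± 0.517 FPKM), Rpl36al (1.70 ± 0.459), Rpl24 (4.18 ± 0.995), Rps10 (6.26 ± 0.763) and Rpl7l1 (23.0 ± 1.69) were lowest. The 2 members that did not pass were the paralogue Rpl10l, with a count of 0 in every library, and Rpl3l, with a mean count of 0.278. In mice both are known for expression outside lymphocytes, Rpl10l in testis and Rpl3l in striated muscle. Rpl24, Rps10 and Rpl13a (30.7 ± 3.30 FPKM) encode ordinary ribosomal proteins. Their transcripts shared 81.7%, 51.8% and 57.4% of their 50-base windows with other genes, against a median of 40.2% over the members. Such sharing was not particular to low members: Rps18 shared 86.7% at 2631 CPM and Rps6 84.6% at 2879 CPM. Its part in the low levels was not tested. The processed copy Rps10-ps2 had 515.8 CPM on average, against 13.98 CPM for Rps10. The copies of Rpl24 and Rpl13a summed to 9.09 and 8.30 CPM, against 4.16 and 62.8 CPM for the genes. No source used here says how reads with several matches were counted, so the levels of members with such copies are uncertain.

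The members took a similar share of all counts in the 3 diets. In SW libraries the share was 11.8%, 11.8%, 13.9%, 14.5%, 12.3% and 13.9% for replicates 1 to 6. In HFD libraries it was 13.0%, 12.3%, 13.4%, 13.5%, 13.0% and 13.9%, and in ND libraries 12.5%, 12.6%, 13.3%, 13.9%, 14.5% and 13.9%. The diets overlapped throughout, with means of 13.0% ± 1.19 in SW, 13.2% ± 0.562 in HFD and 13.4% ± 0.811 in ND (SD, n = 6 each). The differences of these means were -0.27 percentage points for HFD minus ND, -0.40 for SW minus ND and -0.14 for SW minus HFD, each smaller than the SD within a diet. No test was made of the summed share. The large subunit genes took 6.97% ± 0.593 in SW, 7.05% ± 0.298 in HFD and 7.20% ± 0.397 in ND, and the ratio of large to small subunit counts stayed between 1.13 and 1.18 in all 18 libraries. Processed copies (-ps symbols annotated as processed pseudogenes, 294 gene IDs) took 0.413% to 0.542%. Genes with -ps symbols annotated as protein coding were counted neither as members nor as copies. Among them were Rps12-ps3 with 78597 and Rpl9-ps6 with 49003 counts over the 18 libraries. A wider set, the 1102 pseudogene copies under any name that share a 50-base window with a member, took 0.893% to 1.10%.

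The members shifted as a block between libraries, and this shift did not follow the diet labels. For each library the number of the 83 tested members above their own mean over the 18 libraries was counted. It was 4, 3, 73, 75, 5 and 76 for SW replicates 1 to 6. It was 19, 8, 52, 64, 38 and 75 in HFD, and 16, 15, 45, 68, 79 and 70 in ND. So 3 SW libraries had nearly all members high and 3 had nearly all low, and each diet held libraries of both kinds. Over all 13690 tested genes the same count was 49.4% to 52.2% in every library. The median deviation of the members on the log2 CPM scale ran from -0.19 in SW replicate 2 to 0.16 in SW replicate 4. Large and small subunit members moved together: in SW replicate 1 their medians were -0.19 and -0.19, and in SW replicate 4 they were 0.18 and 0.15.

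This shift moved with the replicate numbers and with gene length. In replicates 1 and 2 the members' share was 11.8% to 13.0% (6 libraries), against 12.3% to 14.5% in replicates 3 to 6 (12 libraries). The 2 ranges overlapped through SW replicate 5, which had a share of 12.3% and 5 of 83 members above their own mean. Within replicates 1 and 2 the share differed by 0.11 percentage points for HFD minus ND, -0.68 for SW minus ND and -0.80 for SW minus HFD. Within replicates 3 to 6 these differences were -0.45, -0.26 and 0.19, so HFD minus ND and SW minus HFD had opposite signs in the 2 sets. By the gene lengths implied by the deposited FPKM values, members were short, with a median of 1718 bases against 4454 for other tested coding genes. These are the lengths that FPKM were divided by, which need not be those of the expressed transcripts. The shortest decile of the other coding genes by this implied length (1004 genes) deviated to the same side as the members in 18 of 18 libraries. The longest decile deviated to the opposite side in 17 of 18. In SW replicate 1 the medians were -0.19 for members, -0.13 for the shortest decile and 0.13 for the longest decile. SW replicate 5 was the exception, with -0.12 for members, -0.010 for the shortest decile and -0.019 for the longest decile. Other measures also differed between the 2 sets of replicates. In replicates 1 and 2 against 3 to 6, the mitochondrial genome took a mean of 2.05% against 2.32% of counts. The ranges overlapped (1.93% to 2.23% against 2.07% to 2.86%). Mitochondrial ribosomal protein genes had a mean median deviation of -0.083 against 0.051. The summed CD8 T cell markers averaged 4147 against 4361 CPM, again with overlap (4047 to 4336 against 4155 to 4543 CPM). The part of these measures, of gene length or of what the replicate numbers mark in the members' shift was not tested.

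**Figure D2:**
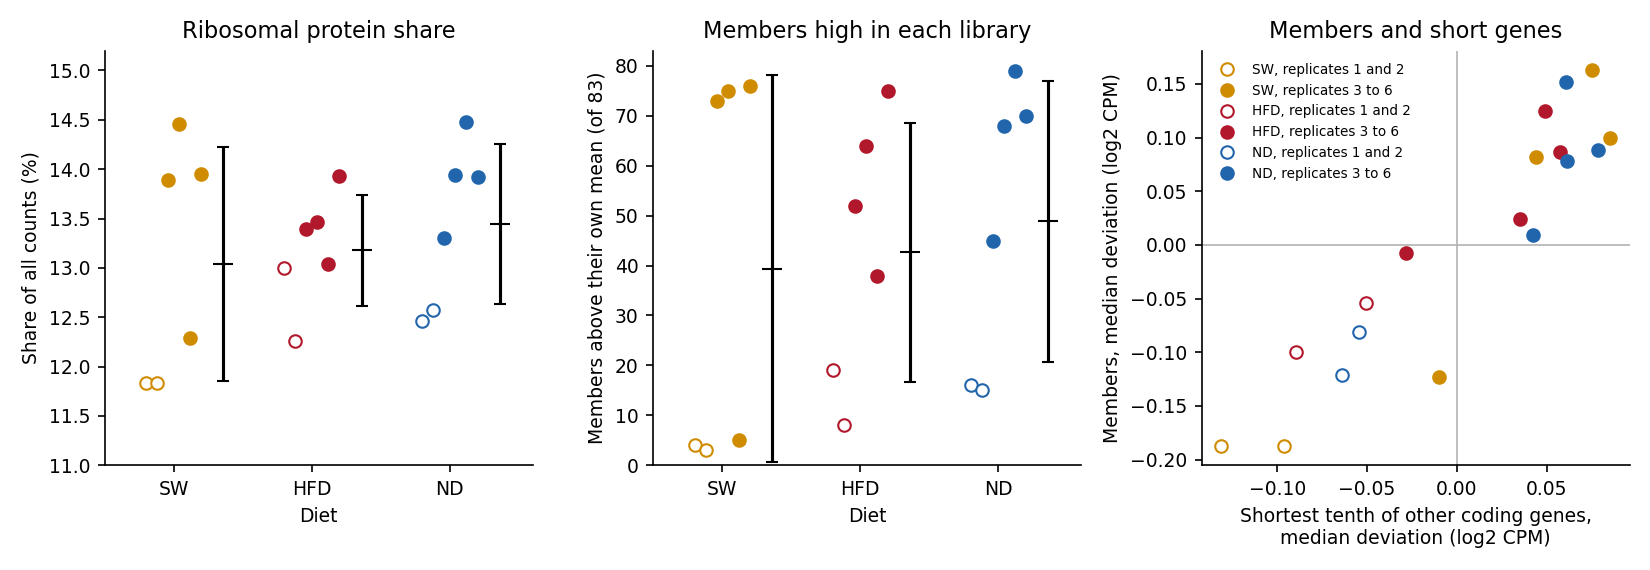
Left, share of all counts taken by the 85 members (%) by diet. Middle, number of 83 tested members above their own mean. Right, median deviation of the members against that of the shortest decile of other coding genes (log2 CPM, each point 1 library). Open symbols are replicates 1 and 2, filled symbols replicates 3 to 6, and bars give mean and SD (n = 6). The diets overlap, and members and short genes lie on the same side of 0 in 18 of 18 libraries.

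Rpl7l1 was lower after continued high fat diet than after normal diet, and no other member passed the test in this comparison. In HFD against ND, 1 of 83 tested members was called at an adjusted p under 0.05, against 1.62% of all 13690 tested genes (222 called; edgeR quasi-likelihood F test, Benjamini-Hochberg adjustment over all genes). At an unadjusted p under 0.05 it was again 1 member, against 14.9% of all genes. The median log2 fold change over the tested members was -0.0066, with 37 above and 46 below 0, and over all tested genes it was 0.0081. The 50 large subunit members had a median of 0.00037 and the 33 small subunit members of -0.012.

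Rpl7l1 (ENSMUSG00000063888, chr17:46773907-46782672, GRCm38, minus strand) is named for its likeness to Rpl7, and in human cells its product is found in precursors of the large subunit. It had 74.7, 67.4, 70.4, 66.7, 75.1 and 74.7 CPM in HFD replicates 1 to 6, against 80.3, 81.0, 84.2, 79.2, 86.3 and 83.1 CPM in ND replicates. Every HFD library lay below every ND library. The means were 71.5 ± 3.85 CPM in HFD and 82.3 ± 2.65 CPM in ND (SD, n = 6 each), a log2 fold change of -0.20 ± 0.050 (SE, edgeR adjusted p = 0.0381). The call was lost without HFD replicate 2, 3 or 4 or ND replicate 3, 5 or 6, with adjusted p between 0.0621 and 0.0856, and it was kept without any of the other 12 libraries. Myeloid marker levels moved with the same contrast: the sum of 6 markers (Lyz2, Cd14, Csf1r, Itgam, S100a8, S100a9) was 14.8 to 22.8 CPM in HFD and 7.93 to 14.1 CPM in ND, all 6 had the higher mean in HFD, none of the 5 tested was called, and none of the 6 was at 0 throughout. The sum of 3 dendritic cell markers was 43.4 to 80.2 CPM in HFD and 27.7 to 54.0 CPM in ND, and that of 3 plasma cell markers 33.9 to 59.3 CPM in HFD and 33.0 to 44.0 CPM in ND. All of these had the higher mean in HFD, as had the 4 B cell markers (18.6 to 25.8 CPM in HFD and 18.7 to 22.9 CPM in ND) and Cd4 (0.446 to 1.32 CPM in HFD and 0.0801 to 0.751 CPM in ND). The 2 NK cell markers had the lower mean in HFD (sum 1.39 to 2.94 CPM, against 2.09 to 3.84 CPM in ND). The sum of 5 erythroid markers was 11.4 to 329 CPM in HFD and 14.03 to 39.8 CPM in ND. In bulk RNA, fewer cells of a type and less RNA per cell cannot be told apart, and the part of other cells in the Rpl7l1 difference was not tested.

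In SW libraries Rpl7l1 had 85.2, 80.9, 76.9, 80.1, 72.5 and 78.4 CPM. It overlapped ND and, through replicate 5, HFD. Its log2 fold change was 0.14 ± 0.050 for SW minus HFD (edgeR adjusted p = 0.278) and -0.060 ± 0.050 for SW minus ND (adjusted p = 0.924). The test for any difference among the 3 diets gave Rpl7l1 an adjusted p of 0.0831. It called 0 of 83 members with edgeR, against 0.898% of all genes, and 3 members had an unadjusted p under 0.05, against 13.3% of all genes. DESeq2, run without the filter on low counts, called 1 member, Rpl7l1, beside 424 genes in all. It gave a p-value to 28663 genes, a number that includes any genes DESeq2 left out of the adjustment. With limma-voom 0 members were called, beside 220 of 13690 genes. With the split of replicates 1 and 2 from the rest as a factor, edgeR also called Rpl7l1, beside 444 of 13690 genes. With scaling by total counts alone it called Rpl7l1 as well, beside 137 of 13690 genes.

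**Figure D3:**
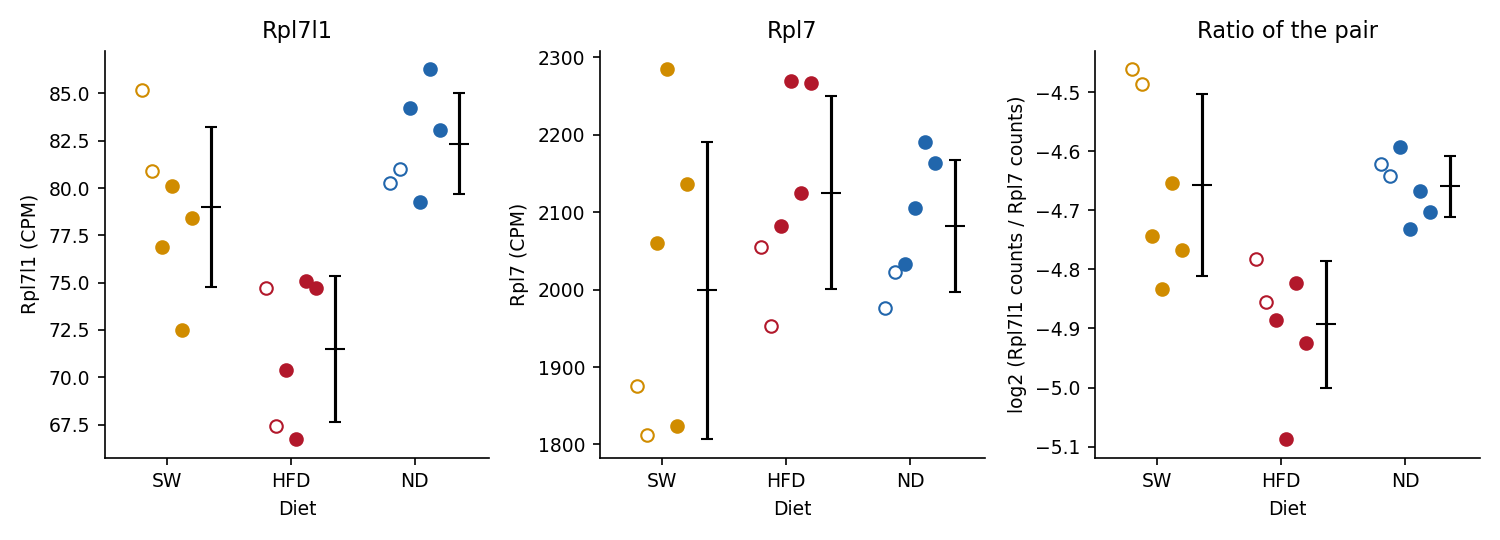
Normalised counts (CPM) of Rpl7l1 and of Rpl7, and the log2 ratio of their counts, by diet. Each point is 1 library, open for replicates 1 and 2, with mean and SD (n = 6) beside the points. The Rpl7l1 values of HFD libraries (66.7 to 75.1 CPM) lie below those of ND libraries (79.2 to 86.3 CPM).

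The other members with the most negative HFD minus ND fold change were Rpl21 (-0.40 ± 0.19), Rps29 (-0.20 ± 0.11) and Rpl39l (-0.16 ± 0.42). Those with the most positive were Rpl36al (0.25 ± 0.25), Rps27a (0.12 ± 0.27), Rpl13a (0.12 ± 0.081) and Rpl34 (0.094 ± 0.053). None of these 7 passed the test, with adjusted p from 0.338 to 0.908. Rpl21 was the largest of them and had 262, 247, 426, 464, 412 and 354 CPM in HFD replicates 1 to 6, against 409, 454, 474, 551, 414 and 551 CPM in ND. The 2 diets overlapped, and the 2 lowest values were HFD replicates 1 and 2. In replicates 1 and 2 alone, which hold these 2 values, Rpl21 was the 1 member called (-0.76, edgeR adjusted p = 0.00082). There 5 of 13864 genes were called. In replicates 3 to 6 alone Rpl21 was not called (-0.27 ± 0.20, edgeR adjusted p = 0.589).

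After the switch to normal food no member was called against ND. It was 0 of 83 members, against 0.0146% of all genes (2 called), and DESeq2 and limma-voom likewise called 0 members. At an unadjusted p under 0.05 there were 3 members, all lower in SW, against 6.81% of all genes. These were Rps21 (840 ± 109 CPM in SW and 961 ± 84.6 in ND, log2 fold change -0.19 ± 0.077, edgeR adjusted p = 0.612), Rpl41 (-0.12 ± 0.054, adjusted p = 0.7002) and Rps4x (-0.12 ± 0.058). The median over the members was -0.040, with 12 above and 71 below 0, beside 0.0023 over all tested genes. By subunit, 41 of 50 large and 30 of 33 small subunit members were below 0. The median was -0.078 in replicates 1 and 2 alone and -0.029 in replicates 3 to 6 alone, and it was -0.012 without SW replicate 2. The members with the most negative fold change were Rpl39l (-0.92 ± 0.45), Rpl21 (-0.26 ± 0.19), Rpl17 (-0.21 ± 0.19) and Rps21, and those with the most positive were Rpl36al (0.26 ± 0.25), Rpl24 (0.22 ± 0.19), Rps27a (0.092 ± 0.27) and Rpl13a (0.091 ± 0.081).

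SW against HFD also called 0 of 83 members, against 0.124% of all genes (17 called), and DESeq2 and limma-voom called 0 members too. At an unadjusted p under 0.05 there were 4 members, against 11.1% of all genes. Rpl7l1 was higher in SW and Rpl3, Rpl34 and Rpl41 were lower. Rpl3, which lies at the peptidyl transferase centre, had 2250, 2256, 2278, 2232, 1934 and 2260 CPM in SW replicates 1 to 6, against 2526, 2363, 2451, 2489, 2358 and 2390 CPM in HFD. The diets did not overlap in Rpl3, yet its log2 fold change of -0.14 ± 0.052 had an edgeR adjusted p of 0.291. The median over the members was -0.028 (25 above and 58 below 0), beside -0.0040 over all tested genes. It was -0.10 in replicates 1 and 2 alone and 0.018 in replicates 3 to 6 alone, so its sign turned between the sets. Each diet enters 2 of the 3 comparisons, so they are not independent.

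**Figure D4:**
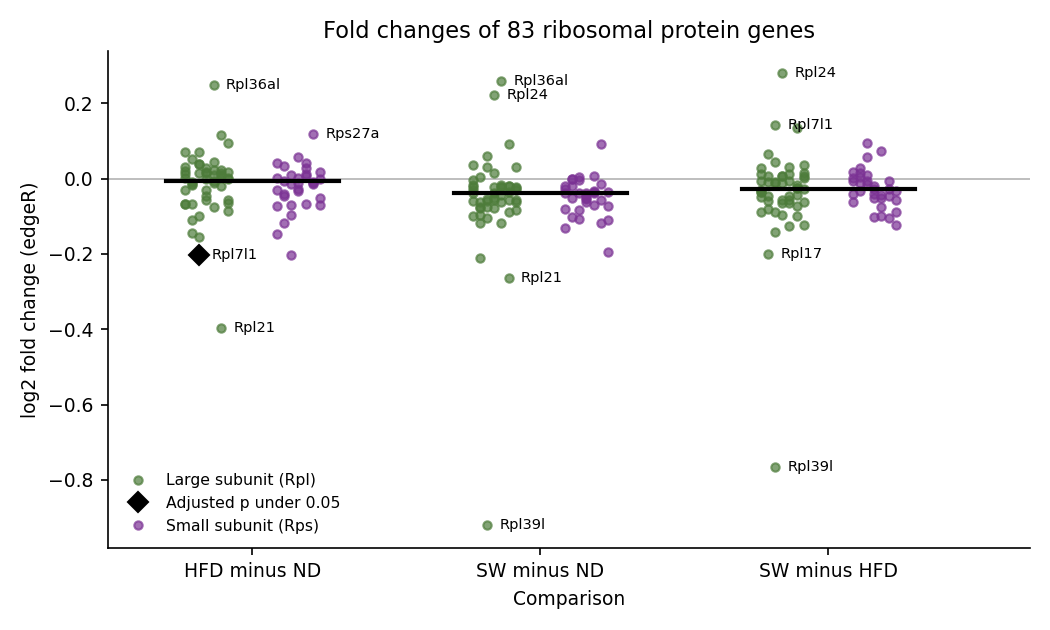
Log2 fold change (edgeR) of the 83 tested members in the 3 comparisons, large subunit left and small subunit right in each, with the median of the members as a bar. Most points lie within 0.2 of 0, and the diamond is Rpl7l1 in HFD minus ND (-0.20), the only member called.

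Paralogue use was compared as the log2 ratio of the counts of a paralogue and its parent gene in each library. Of 9 pairs listed, 6 had a mean count of at least 10 in both genes. Rpl7l1 made up 2.53% ± 0.177 of the summed FPKM of the pair with Rpl7 in HFD, against 2.95% ± 0.102 in ND. The log2 ratio was -4.89 ± 0.107 in HFD and -4.66 ± 0.052 in ND (SD, n = 6 each; difference -0.23 ± 0.049 SE, exact permutation test, two-sided, p = 0.00216, adjusted over 18 tests 0.039). This p is the smallest that 6 against 6 libraries allow, and the ratio uses the same Rpl7l1 counts as the fold change above. Rpl7 itself had 2125 ± 124 CPM in HFD and 2082 ± 85.1 CPM in ND (adjusted p = 0.866). For SW minus HFD the ratio of Rpl7l1 to Rpl7 differed by 0.24 ± 0.077 (exact permutation p = 0.00649, adjusted 0.0584), and for SW minus ND by 0.0020 ± 0.066 (exact permutation p = 0.978, adjusted 0.998).

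The other 5 pairs did not pass in any comparison, with adjusted p of 0.658 or more. Rpl22l1, which in mice can take the place of Rpl22 when that gene is lost, made up 21.8% ± 0.699 of the pair in SW, 22.4% ± 1.27 in HFD and 21.7% ± 1.01 in ND. Its log2 ratio to Rpl22 differed by 0.052 ± 0.056 for HFD minus ND, by 0.0055 ± 0.042 for SW minus ND and by -0.047 ± 0.050 for SW minus HFD (difference ± SE). Rps27l, which p53 is known to induce in human cells, made up 2.66% ± 0.278 of its pair with Rps27 in SW, 2.87% ± 0.322 in HFD and 2.88% ± 0.433 in ND. Rps27rt, whose start sequence matches that of Rps27 over 19 letters, made up 34.7% ± 2.83 in SW, 35.96% ± 4.64 in HFD and 36.1% ± 6.99 in ND. Counts of these 2 genes can be split by the way matching reads were assigned. Rpl36al and Rpl39l made up 0.351% ± 0.098 and 0.105% ± 0.080 of their pairs in SW, 0.346% ± 0.0998 and 0.180% ± 0.070 in HFD, and 0.286% ± 0.103 and 0.180% ± 0.070 in ND. Rpl39l rests on few reads, with 1 to 20 counts per library.

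Most members varied little between libraries, and a few varied much. The SD of log2 CPM over the 18 libraries had a median of 0.14 over the tested members, against 0.18 over all tested genes, and was lowest in Rpl4 (0.062). It exceeded 0.25 in 6 members, Rpl39l (0.52), Rps27a (0.46), Rpl21 (0.36), Rpl17 (0.35), Rpl36al (0.34) and Rpl24 (0.28). These 6 were chosen after their values were seen. The medians of 0.14 and 0.18 were not matched for count level, and 53 of the 100 genes with the highest mean count were members. Rps27a, which is made as a fusion of ubiquitin and a small subunit protein, had 746, 485, 1086, 821, 869 and 1173 CPM in SW replicates 1 to 6. It had 539, 1042, 974, 1017, 1129 and 577 CPM in HFD and 498, 1118, 966, 624.98, 1101 and 551 CPM in ND. High and low libraries occurred in every diet, and the means were 863 ± 246 CPM in SW, 880 ± 254 in HFD and 810 ± 284 in ND. The 14 annotated pseudogenes that share a 50-base window with Rps27a summed to 32.6 CPM on average, against 851 CPM for the gene.

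For Rpl17 the counts were split between the gene and its copy Rpl17-ps10 in shares that differed between libraries. Another processed copy, Rpl17-ps3, had 176583 counts over the 18 libraries, against 181017 for Rpl17-ps10. Rpl17 had 465, 850, 1236, 1132, 787 and 1019 CPM in SW replicates 1 to 6, while its processed copy Rpl17-ps10 had 1106, 703, 588, 805, 804 and 751 CPM. In ND replicate 6 Rpl17 was at 1472 CPM and the copy at 405 CPM, the highest and the lowest value of each over 18 libraries. The gene alone spanned 3.17-fold over the libraries, and the sum of the gene and Rpl17-ps10 1.247-fold. With all its pseudogene copies added, the SD of log2 CPM was 0.13 for Rpl17, against 0.35 for the gene alone. For Rpl21 the gene ran from 247 to 566 CPM, its copy Rpl21-ps15 from 251 to 355 CPM and their sum from 515 to 922 CPM, so the sum varied as well. Summed with the copies that carry its symbol stem, Rpl17 had a SW minus ND log2 fold change of -0.018 ± 0.072, against -0.21 ± 0.19 alone. For Rpl21 the HFD minus ND value was -0.21 ± 0.12 when summed, and was not called. Of the 85 members, 82 shared at least 1 window of 50 bases with an annotated pseudogene. In 4, Rpl17, Rpl21, Rps10 and Rpl24, these pseudogenes held more CPM than the member.

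**Figure D5:**
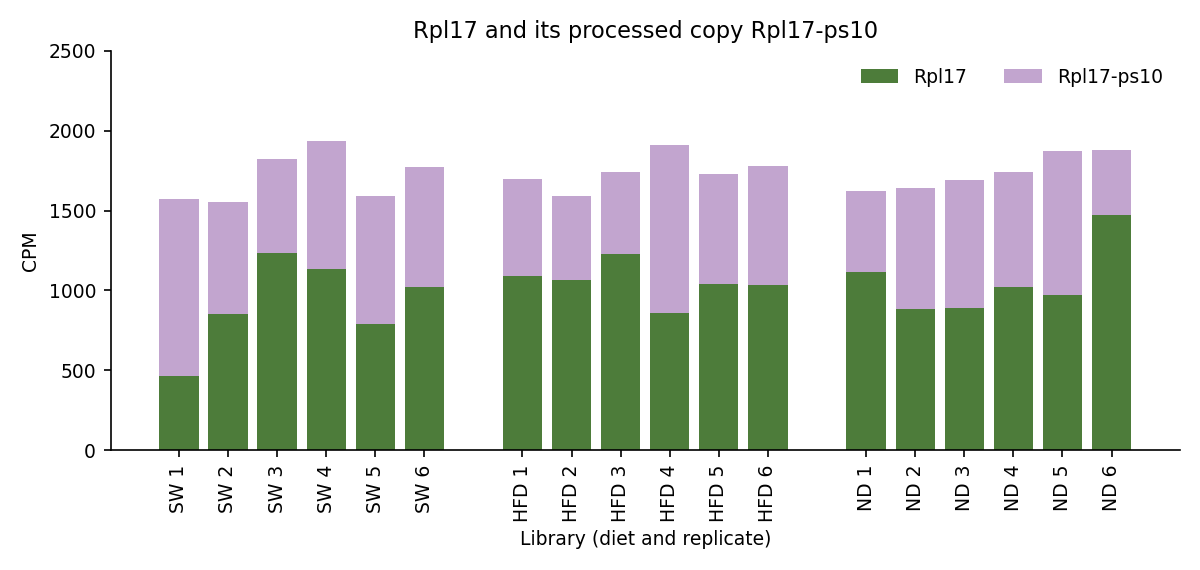
Stacked normalised counts (CPM) of Rpl17 and its processed copy Rpl17-ps10 in each of the 18 libraries. The split between gene and copy differs between libraries of 1 diet, and their sum stays between 1553 and 1937 CPM. Other copies of Rpl17, such as Rpl17-ps3, are not shown.

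Rack1 and Fau, ribosomal protein genes outside the naming rule, did not pass the test in any comparison. Rack1, a scaffold on the small subunit, had 2719 ± 168 CPM in SW, 2895 ± 154 in HFD and 2836 ± 149 in ND. Fau, a fusion of a ubiquitin-like protein and a small subunit protein, had 1525 ± 131 CPM in SW, 1572 ± 60.6 in HFD and 1604 ± 140 in ND.

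Genes around the ribosome were described by lists. Of 38 other 5′TOP and translation genes, 0 were called with edgeR in each comparison, and their median log2 fold change was 0.045 for HFD minus ND (30 above 0), -0.025 for SW minus ND (10 above 0) and -0.052 for SW minus HFD (6 above 0). At an unadjusted p under 0.05 they numbered 2, 0 and 6 in these comparisons, against 14.9%, 6.81% and 11.1% of all tested genes. Of 48 ribosome assembly genes 0 were called, with medians of -0.036 (34 below 0), -0.014 (29 below 0) and 0.025 (13 below 0), and 9, 3 and 3 at an unadjusted p under 0.05. Of 20 regulators, 0 were called, with medians of -0.023, -0.011 and 0.0086, and 4, 0 and 2 had an unadjusted p under 0.05. Among the regulators, Myc, which drives ribosome production, had 154 ± 17.6 CPM in HFD and 142 ± 11.5 in ND (log2 fold change 0.11 ± 0.068, adjusted p = 0.466). Larp1 had 257 ± 20.1 CPM in HFD and 245 ± 17.1 in ND (0.073 ± 0.061, adjusted p = 0.620), and Eif4ebp1, a translation repressor that mTOR inactivates, had 8.69 ± 1.27 CPM in HFD and 8.82 ± 0.910 in ND (-0.023 ± 0.13, adjusted p = 0.956). Of 77 tested mitochondrial ribosomal protein genes, which serve the separate ribosome of mitochondria, 1 was called (against 1.62% of all genes), Mrpl51, lower in HFD than in ND (-0.27 ± 0.070, edgeR adjusted p = 0.0466). Their medians were -0.048, -0.023 and 0.023 for HFD minus ND, SW minus ND and SW minus HFD. Of the 94 processed copies that passed the filter 0 were called, with 3 at an unadjusted p under 0.05 in each comparison and medians of 0.011, -0.032 and -0.033.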

How the data were processed

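RNA-seq of spleen CD8 T cells from 3 diets was analysed from the deposited files. Each library has 1 file of raw counts, not normalized, and 1 file of FPKM values, both deposited by the authors. Per the submitters' processing notes, reads passed through fastp and the builds were GRCm38 and mm10. Aligner, counting tool, treatment of reads with several matches and strandedness: not given in the sources used here. FPKM equalled the count times a gene and a library factor to within 2.5e-09 for the 9534 genes whose counts exceed 50 throughout. Symbols are from GENCODE M21, which matched 52125 of 56748 gene IDs.

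Counts were tested with edgeR 4.0.16 (R 4.3.3; TMM, filterByExpr, robust quasi-likelihood F test) in 1 fit of 18 libraries with diet as the factor, over 13690 genes. The test was also run on simulated counts for the HFD and ND libraries alone. These were drawn independently for each gene, so they do not check the test under the shift between libraries described above. CPM are edgeR's, and log2 deviations use a pseudocount of 0.5. Ratios of paralogue pairs were tested by exact permutation. Shared windows of 50 bases were counted between GENCODE transcripts. Motifs were searched in RefSeq promoters. Intervals of depth were not computed; total counts give the depth, and duplicates from PCR were not identified.

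The members, lists and pairs were chosen with earlier results of these data known. Named members were those called, the 4 highest and 4 lowest fold changes in each comparison, the 5 highest and 5 lowest levels, the paralogue pairs, and Rplp0, Rplp1, Rplp2, Rpsa, Rps6, Rpl5 and Rpl11. The CD4 T and B cells of the series' design were not analysed here. 1 gene of the lists is not reported here.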

Additional observations from a re-analysis of the deposited data

Results flagged for a closer look

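In 126 sets of 6 libraries (named members, paralogue ratios and summed measures in each diet), 6 held a library whose gap to its nearest neighbour exceeded 0.625 of the range, Dixon's 95% limit. Chance flags about 1 set in 20. In SW, Rpl3 was at 1934 CPM in replicate 5, against 2232 to 2278 CPM in the others. In HFD, Rpl24 was at 6.457 CPM in replicate 4, against 2.78 to 3.82 CPM, and the log2 ratio of Rpl39l to Rpl39 was -11.38 in replicate 5, against -10.05 to -9.28. In ND, replicate 5 was highest for Rpl5 (3427 CPM, against 3040.2 to 3169) and for Rplp0 (5491 CPM, against 4825 to 5060), and Rplp2 was at 1259 CPM in replicate 1, against 1484 to 1586. ND replicate 5 also had the highest number of members above their own mean (79 of 83).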

How the results depend on the processing

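Calls rest on small margins. The 1 member called in HFD against ND (Rpl7l1, adjusted p 0.00419 to 0.613 over 16 other settings) became 0 with no filter on low counts and 0 in replicates 3 to 6 alone; in replicates 1 and 2 alone the 1 call was Rpl21. Leaving out 1 library gave 0 to 1. For any diet, the 0 members became 1 with DESeq2, with total counts alone, with the split of replicates 1 and 2 from the rest as a factor, and in replicates 1 and 2 alone (Rpl21 there, Rpl7l1 otherwise). SW against ND and SW against HFD had 0 members called in every alternative run. Of 18 paralogue tests, 1 passed; 0 passed in replicates 3 to 6 alone (smallest adjusted p 0.514, where the smallest exact p is 0.0286), and 0 to 2 on leaving out 1 library, with 2 without SW replicate 4, where Rpl7l1 over Rpl7 also passed for SW minus HFD (0.27, adjusted p = 0.0195). No called value changed sign.

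The labels do not say that a replicate number pairs libraries. Deviations of same-numbered libraries correlated over genes between -0.032 and 0.26, and 3 of 6, 4 of 6 and 2 of 6 pairs exceeded 0.1 in HFD against ND, SW against ND and SW against HFD. With the replicate block, 598, 49 and 138 genes were called in these comparisons, against 222, 2 and 17 without it. With only the split of replicates 1 and 2 from the rest as a factor, 535, 22 and 116 genes were called. A rise in calls under the block therefore does not show that the numbers pair libraries. Under the block the members called were 1, 0 and 0, and 1 for any diet, against 0 for any diet without it. Under the replicate block 0 paralogue tests passed (smallest adjusted p 0.141). The smallest exact p that 6 pairs allow is 0.03125, which does not pass adjustment over 18 tests unless most reach it. Rpl7l1 over Rpl7 reached it for HFD minus ND and for SW minus HFD.

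DESeq2 called 459, 52 and 108 genes, and limma-voom 359, 29 and 8. The members' median ran from -0.036 to 0.025 for HFD minus ND, -0.078 to -0.012 for SW minus ND and -0.10 to 0.018 for SW minus HFD, and the share differences from -0.46 to 0.11, -0.69 to -0.16 and -0.80 to 0.19 percentage points.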
